A study of Mus musculus with 12 samples.

Results

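The genes described here make cholesterol and fatty acids or respond to the sterol sensor LXR, and they were followed as 35 named members among the 54100 features that all 12 count files of the series share. The members were listed by name, but with earlier results of these data known, so their shares set against all genes are descriptions. They comprise 5 regulators (Srebf1, Srebf2, Scap, Insig1, Insig2), 8 genes of the mevalonate arm, 12 of the squalene and sterol arm, 5 of the fatty acid arm (Acly, Acaca, Fasn, Scd1, Scd2) and 5 LXR receptors and targets (Nr1h2, Nr1h3, Abca1, Abcg1, Mylip). The series asks how the kinase CK1α, encoded by Csnk1a1, bears on cGAS-STING signalling, the pathway that detects DNA in the cytosol. Polyadenylated RNA of mouse cells was read in 6 groups of 2 libraries, and each treatment has a control group of its own, so the 3 comparisons share no library.

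SSTC3, known as a compound that activates CK1α, was set against its solvent DMSO in cells labelled BMDM (bone marrow-derived macrophages) that also carry a knockout named TREX1-KO and TREX2-KO for the SSTC3 libraries, and TREX3-KO and TREX4-KO for the DMSO libraries. CK1a_OV, labelled as overexpression of CK1a, was set against OV_control, and CK1a_siRNA, labelled as knockdown, against knockdown_control, all 8 libraries in cells labelled MEF (mouse embryonic fibroblasts). The genotype entry is C57BL/6J for all 12 libraries. No dose, time, construct or siRNA sequence is given. The numbers in the knockout names differ from library to library, so the knockout entry and the treatment cannot be told apart if those numbers stand for different genes. No label says that the libraries of a group came from separate cultures or animals, so the spread behind the p-values may be that of technical repeats.

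In animal cells, sterol synthesis is governed by feedback. When membrane sterol is low, the escort protein Scap carries the precursors of the transcription factors SREBP1 (Srebf1) and SREBP2 (Srebf2) to the Golgi, where proteases release them, and when sterol is plentiful the Insig proteins hold Scap in the endoplasmic reticulum. SREBP2 mainly drives the cholesterol genes and SREBP1 the fatty acid genes, and Insig1 is itself a target of this arm. The LXR receptors bind oxysterols, raise sterol export through Abca1 and Abcg1, and raise Mylip, a ubiquitin ligase that removes lipoprotein receptors from the cell surface.

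SREBP is known to act at short promoter elements next to sites of the factor NF-Y, so 3 promoters are shown here, 1 of each behaviour met in the results. Hmgcs1 was strongly higher with knockdown, Insig1 had the largest increase of the members with SSTC3, and Msmo1 was higher in all 3 comparisons. The windows come from RefSeq (GRCm38.p6), run from 250 bases before to 50 after the annotated start and read 5′ to 3′ along the gene. Capitals mark matches to the sterol regulatory element TCACNCCAC and to the NF-Y letters CCAAT, on either strand (ATTGG is CCAAT read on the other strand).
Hmgcs1, chr13:119690101-119690400, plus strand: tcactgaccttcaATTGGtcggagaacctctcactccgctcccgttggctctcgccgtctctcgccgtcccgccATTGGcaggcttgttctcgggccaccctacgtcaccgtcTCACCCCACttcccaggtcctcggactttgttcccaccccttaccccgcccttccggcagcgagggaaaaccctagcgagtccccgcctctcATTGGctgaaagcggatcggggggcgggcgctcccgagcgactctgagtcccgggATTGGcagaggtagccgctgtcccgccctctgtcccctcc
Insig1, chr5:28071162-28071461, plus strand: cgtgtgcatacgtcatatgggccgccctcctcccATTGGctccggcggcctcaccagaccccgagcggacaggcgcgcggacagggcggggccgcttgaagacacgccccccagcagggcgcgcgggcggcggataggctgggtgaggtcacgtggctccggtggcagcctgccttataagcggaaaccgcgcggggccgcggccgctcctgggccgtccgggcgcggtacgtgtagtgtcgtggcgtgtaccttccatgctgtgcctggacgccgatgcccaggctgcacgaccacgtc
Msmo1, chr8:64733529-64733828, minus strand: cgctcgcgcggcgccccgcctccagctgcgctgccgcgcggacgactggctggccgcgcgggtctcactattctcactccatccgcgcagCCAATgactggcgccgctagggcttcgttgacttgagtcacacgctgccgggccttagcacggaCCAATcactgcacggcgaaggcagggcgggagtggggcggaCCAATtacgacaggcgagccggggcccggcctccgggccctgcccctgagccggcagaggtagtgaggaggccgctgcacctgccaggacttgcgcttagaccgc
The Hmgcs1 window held a TCACNCCAC match, TCACCCCAC, and 4 of CCAAT, the Insig1 window held 1 CCAAT match, and the Msmo1 window held 3. RefSeq windows were found for 28 of the 35 members, 37 windows in all. CCAAT was present in 23 of these 37 windows (62.2%), against 37.41% of all 32851 windows. TCACNCCAC was present in 1 of the 37 (2.7%), against 1.24% of all windows, and a direct repeat of AGGTCA with 4 bases between, the usual LXR element, in 0 of the 37 (0.02% of all windows). These are matches of letters in a 300-base window and say nothing about binding.

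Library totals ran from 16063627 to 19427506 counts, with 20266 to 22950 genes detected. Csnk1a1, read as the check of the labels, had 171.5 and 169.2 CPM (counts scaled to the library total) in the CK1a_siRNA libraries, against 325.0 and 354.1 CPM in the knockdown_control libraries (log2 fold change −0.96 ± 0.05, SE; adjusted p = 2.88e-27). The libraries labelled CK1a_OV did not differ detectably from OV_control in this transcript, at 229.3 and 244.4 CPM, against 237.8 and 234.7 CPM (−0.01 ± 0.04, adjusted p = 0.901), and the direction of that comparison rests on its label. Markers went against the BMDM label. In the SSTC3 and DMSO libraries 12 macrophage markers summed to 10.3 to 13.3 CPM, with Adgre1 at 0 in all 4 (Itgam was at 0 too, but 68.7% of its exonic bases overlap the gene model Gm49368), while the sum of 12 fibroblast markers there was 8193 to 9269 CPM. In the overexpression set the fibroblast sums ran from 3858 to 4421 CPM and the macrophage sums from 20.95 to 23.1 CPM, with Adgre1 at 0. In the knockdown set they ran from 3564 to 4278 CPM and from 269.2 to 325.4 CPM, the macrophage sum being mostly Cd68. Vim and Fn1, which many cell types express, made up 88.3% to 89.4% of the fibroblast sum in the overexpression set and 83.8% to 90.7% in the knockdown set, against 38.7% to 49.8% in the SSTC3 and DMSO libraries. Lum had no count in the overexpression and knockdown sets and 0 to 2 counts in the SSTC3 and DMSO libraries, and Dcn had 0 to 1 count in the overexpression set, none in the knockdown set and 12 to 22 in the SSTC3 and DMSO libraries. Hepatocyte and adipocyte markers (6 genes) summed to 3.59 CPM or less in all 12 libraries. Trex1 was at 0 in all 12, with 100% of its exonic bases inside exons of Atrip, so its count does not check the knockout. Each set is called by its treatment labels below.

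The 3 cell sets differed in how much of this program they expressed. Per kilobase of exon, Scd2 was the most abundant member in the SSTC3, DMSO, CK1a_OV and OV_control groups, with a mean level of 445 CPM per kb in SSTC3, 866 in DMSO, 197 in CK1a_OV and 167 in OV_control. In the knockdown set Cyp51 and Insig1 stood highest instead, with Cyp51 at 95.6 and Insig1 at 93.8 CPM per kb in CK1a_siRNA, and Cyp51 at 50.2 and Insig1 at 83.9 CPM per kb in knockdown_control. Scd2 was at 74.2 CPM per kb in CK1a_siRNA and 30.3 CPM per kb in knockdown_control. Differences between sets were not tested because the sets differ in cells and in the features listed.

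**Figure D1:**
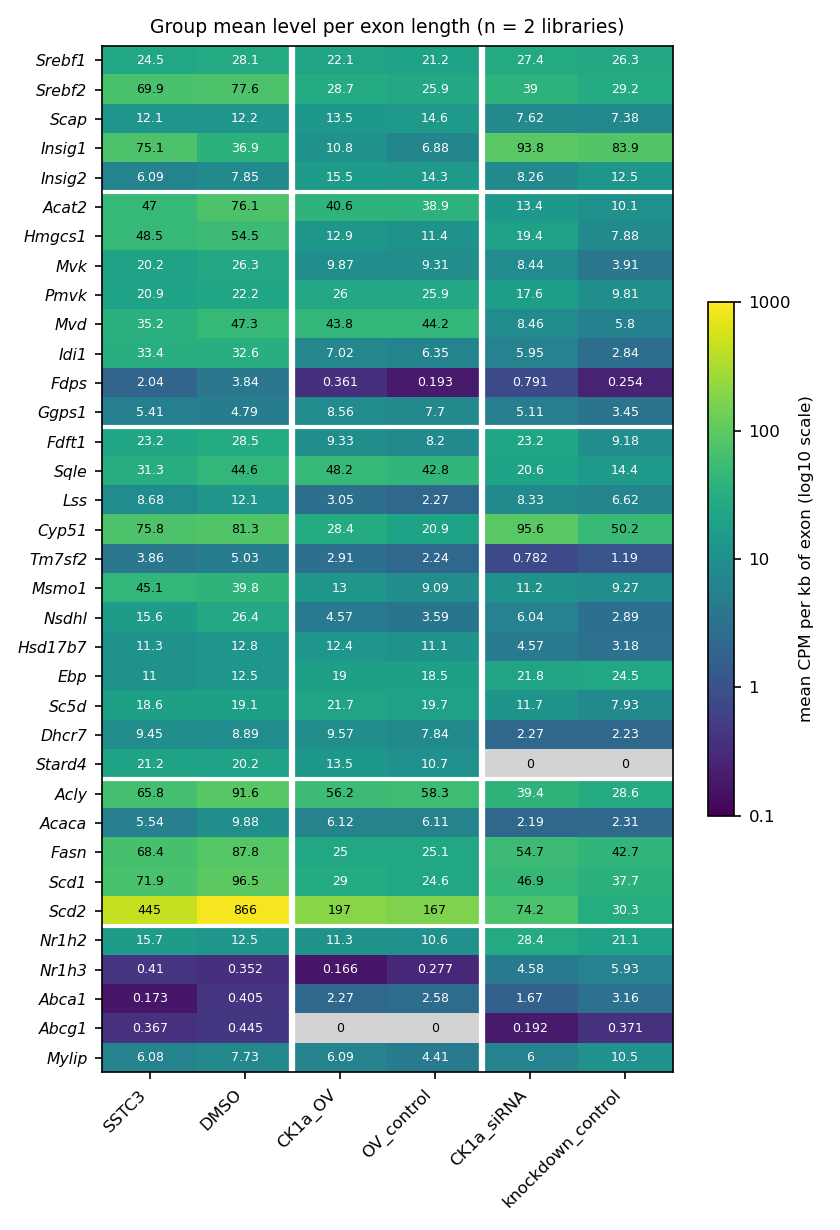
Mean level of each of the 35 members in the 6 groups (columns, 2 libraries each), in CPM per kb of exon on a log10 colour scale, ordered by arm with the values printed in the cells. Scd2 reaches 866 in DMSO, while Abcg1 is at 0 in the overexpression set and Stard4 at 0 in the knockdown set, both in grey.

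Several members were far apart between the sets. Insig1 lay between 20.7 and 34.9 CPM in the overexpression set and between 112.6 and 291.6 CPM in the other 8 libraries. Abca1, the main cholesterol exporter of most cells, lay between 1.77 and 4.57 CPM in the SSTC3 and DMSO libraries and between 17.25 and 34.52 CPM in the other 8. Nr1h3 (LXRα) lay between 11.52 and 15.24 CPM in the knockdown set and between 0.238 and 1.12 CPM elsewhere, whereas Nr1h2 (LXRβ) was expressed everywhere, at 33.6 to 99.0 CPM. Abcg1 had no count in the 4 overexpression libraries, where 3 counts, the limit that a count of 0 allows, would be 0.173 to 0.179 CPM, and Stard4 had none in the 4 knockdown libraries (0.154 to 0.187 CPM). Such floors cover counting error only.

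Most of the lipid synthesis genes were lower with SSTC3, while Insig1 was higher. Of 35 members tested, 20 were lower (57.1%), 5 were higher (14.3%) and 10 did not pass. Over all 14151 genes 53.6% passed, 26.5% lower and 27.1% higher, so the share of members that were lower stood above the background. Scaled by library totals, 31.2% of all genes were lower and 23.2% higher, so the balance of the background depends on the scaling. The median log2 fold change was −0.22 over the members and 0.01 over all genes. Every p-value given here is from edgeR's quasi-likelihood F test with Benjamini-Hochberg adjustment over all genes of the comparison, and a gene passed at an adjusted p under 0.05.

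Among the regulators, Insig1 (ENSMUSG00000045294, mm10 chromosome 5, 28071363 to 28078662, plus strand) had 228.7 and 236.0 CPM in SSTC3 libraries, against 115.3 and 112.6 CPM in DMSO libraries. Both SSTC3 libraries lay far above both DMSO libraries, a 2.12-fold difference (log2 1.08 ± 0.05, adjusted p = 1.28e-63). Its paralog Insig2 (ENSMUSG00000003721, chromosome 1, 121304353 to 121332589, minus strand) had 23.3 and 19.1 CPM in SSTC3 libraries, against 26.4 and 28.1 CPM in DMSO libraries (−0.31 ± 0.10, adjusted p = 0.00503). The Insig pair therefore moved in opposite directions. Srebf1 had 139.6 and 136.0 CPM with SSTC3, against 160.0 and 157.0 CPM with DMSO (−0.15 ± 0.05, adjusted p = 0.00562). For Srebf2 the values were 504.5 and 500.2 CPM with SSTC3, against 569.9 and 545.6 CPM with DMSO (−0.10 ± 0.04, adjusted p = 0.0173). Scap, at 90.9 and 89.2 CPM with SSTC3, against 95.3 and 85.8 CPM with DMSO, overlapped between the groups (0.05 ± 0.06, adjusted p = 0.508).

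**Figure D2:**
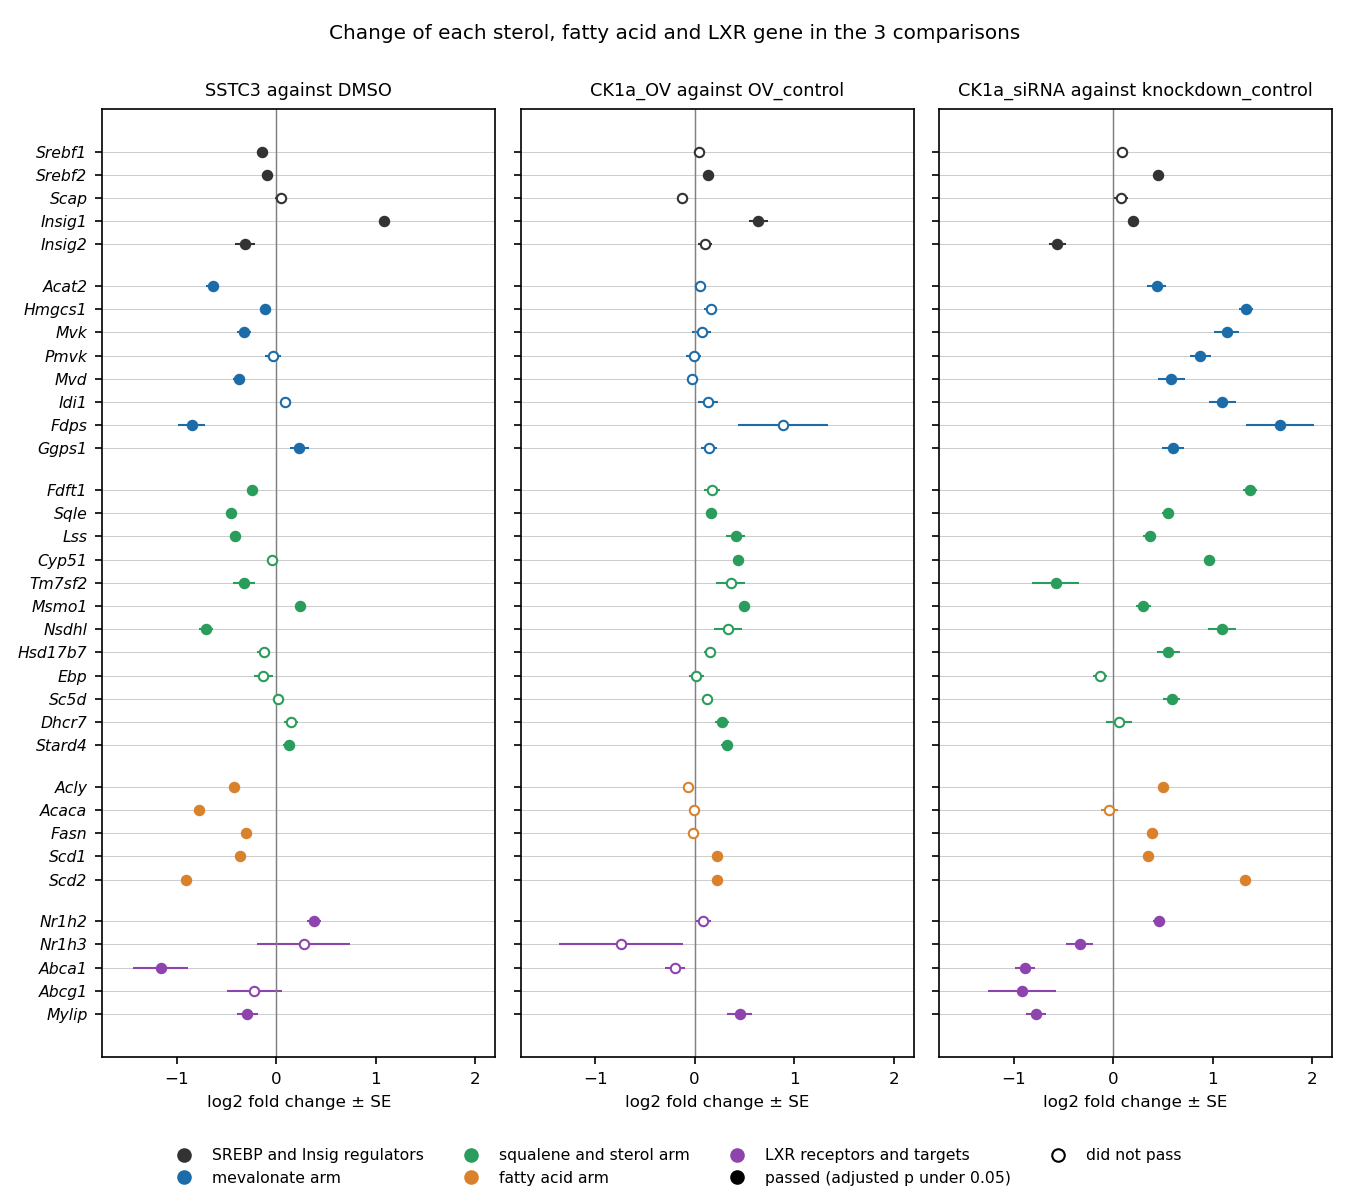
Log2 fold change of each member (points, with SE as bars) in the 3 comparisons, grouped by arm. Filled points passed at an adjusted p under 0.05. Insig1 stands alone at 1.08 in the SSTC3 panel, and the 8 mevalonate genes lie between 0.44 and 1.68 in the CK1a_siRNA panel.

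All 5 fatty acid genes fell with SSTC3, by a median of −0.42 on the log2 scale. Scd2 (ENSMUSG00000025203, chromosome 19, 44293674 to 44306864, plus strand), a stearoyl-CoA desaturase that makes monounsaturated fatty acids, had 2456 and 2408 CPM in SSTC3 libraries, against 4726 and 4743 CPM in DMSO libraries. The libraries within each group were close together and the groups far apart, 1.87-fold (−0.91 ± 0.03, adjusted p = 5.99e-82). Acaca, the acetyl-CoA carboxylase that makes malonyl-CoA, had 90.3 and 98.7 CPM with SSTC3, against 169.6 and 167.8 CPM with DMSO (−0.78 ± 0.05, adjusted p = 6.91e-37), although 23.7% of its 100-base words also occur in another gene. Acly, which supplies cytosolic acetyl-CoA, had 341.5 and 353.5 CPM with SSTC3, against 478.6 and 488.1 CPM with DMSO (−0.42 ± 0.04). Scd1 and Fasn, the fatty acid synthase, changed by −0.37 ± 0.04 and −0.30 ± 0.04, with adjusted p of 6.07e-19 and 1.01e-12. Summed over the arm the level was 3947 and 4003 CPM in SSTC3 libraries, against 6801 and 6839 CPM in DMSO libraries, most of it Scd2.

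Most of the sterol genes that passed were lower. In the mevalonate arm 5 of 8 genes fell and 1 rose, and in the squalene and sterol arm 5 of 12 fell and 2 rose. Over all genes 26.5% were lower and 27.1% higher, and with so few genes per arm these counts are descriptions. Fdps, the farnesyl diphosphate synthase, had 8.77 and 8.43 CPM in SSTC3 libraries, against 15.7 and 16.6 CPM in DMSO libraries (−0.85 ± 0.14, adjusted p = 1.05e-08), but 26.7% of its exonic bases overlap another annotated gene. Nsdhl, a dehydrogenase of sterol demethylation, had 44.6 and 44.3 CPM with SSTC3, against 69.8 and 80.7 CPM with DMSO (−0.70 ± 0.07, adjusted p = 3.71e-20). Acat2, the thiolase that starts the arm, changed by −0.64 ± 0.07 (adjusted p = 4.53e-08), with 28.9% of its 100-base words shared with Acat3. Squalene epoxidase (Sqle) changed by −0.46 ± 0.04 and lanosterol synthase (Lss) by −0.42 ± 0.05, with adjusted p of 7.05e-21 and 6.99e-13. Smaller decreases that passed were those of Mvd (−0.37 ± 0.06), Tm7sf2 (−0.33 ± 0.11), Mvk (−0.32 ± 0.07), Fdft1 (−0.24 ± 0.05) and Hmgcs1 (−0.12 ± 0.04).

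Against this, Msmo1 (ENSMUSG00000031604, chromosome 8, 64718139 to 64733792, minus strand), the methylsterol monooxygenase that acts with Nsdhl, had 281.7 and 273.1 CPM in SSTC3 libraries, against 243.4 and 245.1 CPM in DMSO libraries. Its libraries did not overlap (0.24 ± 0.04, adjusted p = 7.03e-08), so these 2 enzymes of sterol demethylation moved apart. Ggps1, which makes the geranylgeranyl donor for prenylation, changed by 0.23 ± 0.10 (adjusted p = 0.0381) and Stard4, a cholesterol carrier, by 0.12 ± 0.05 (adjusted p = 0.0363). The members that did not pass here were Pmvk (−0.03), Idi1 (0.09), Cyp51 (−0.05), Hsd17b7 (−0.13), Ebp (−0.13), Sc5d (0.02) and Dhcr7 (0.14), beside Scap, Nr1h3 and Abcg1. Scaled by library totals, Cyp51 (−0.10, adjusted p = 0.0175) and Hsd17b7 (−0.18, adjusted p = 0.0131) passed as lower.

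Of the LXR genes, Nr1h2 had 51.05 and 54.3 CPM in SSTC3 libraries, against 43.3 and 40.9 CPM in DMSO libraries (0.38 ± 0.07, adjusted p = 2.00e-06). Abca1 (ENSMUSG00000015243, chromosome 4, 53030787 to 53159895, minus strand) was nearly silent in this set, at 1.83 and 1.77 CPM with SSTC3, against 3.81 and 4.57 CPM with DMSO. Its groups still did not overlap, and it had the lowest fold change of the members (−1.16 ± 0.28, adjusted p = 0.000143). Mylip (ENSMUSG00000038175, chromosome 13, 45389742 to 45412022, plus strand) had 19.3 and 20.05 CPM with SSTC3, against 25.7 and 24.3 CPM with DMSO (−0.29 ± 0.10, adjusted p = 0.0111). Nr1h3 (0.27 ± 0.47) and Abcg1 (−0.22 ± 0.27), at 3.48 CPM or less, overlapped between the groups. Fibroblast markers summed to 8193 and 8272 CPM in SSTC3 libraries, against 8978 and 9269 CPM in DMSO libraries, with 3 of 11 tested higher and 6 lower, and their part in the results was not tested. In bulk RNA, fewer cells of a type and less RNA per cell cannot be told apart.

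In the SSTC3 comparison some calls were lost with all libraries kept. Ggps1 and Stard4 did not pass with library totals (adjusted p = 0.121 and 0.268) or with no filter (0.0971 and 0.122). They did not pass in a joint fit of all 12 libraries (0.0561 and 0.122) or with DESeq2 either. Insig2, Hmgcs1, Tm7sf2 and Mylip did not pass with DESeq2, which called 16 members lower. Of the 25 members called with SSTC3, 17 passed under every alternative. Among the 5 higher, Insig1, Msmo1 and Nr1h2 did so, whereas Ggps1 did not pass without SSTC3 replicate 1 or 2 or DMSO replicate 1 or 2 (adjusted p = 0.0858, 0.141, 0.174 and 0.0804) and Stard4 without SSTC3 replicate 1 or DMSO replicate 1 or 2 (0.530, 0.159 and 0.0722), with a change of 0.05 without SSTC3 replicate 1 and 0.19 without SSTC3 replicate 2. Among the 20 lower, Srebf1 did not pass without SSTC3 replicate 2 (0.0726), and Srebf2 without SSTC3 replicate 1 or 2 or DMSO replicate 1 (0.0846, 0.122 and 0.163). Insig2 (at −0.18) and Hmgcs1 did not pass without SSTC3 replicate 2 (0.216 and 0.202) or DMSO replicate 2 (0.0593 and 0.149). Tm7sf2 did not pass without SSTC3 replicate 2 or DMSO replicate 1 (0.126 and 0.0957), and Mylip without SSTC3 replicate 1 or DMSO replicate 1 (0.0794 and 0.0890).

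The libraries labelled CK1a_OV showed the smallest changes, and those that passed were increases. Of 34 members tested 11 were higher (31.4% of 35), against 5.78% of all 13958 genes, and 0 were lower, against 7.57% of all genes, of which 13.3% passed in either direction. At an unadjusted p under 0.05, 17 members were higher and 1 lower, a count for which no share of all genes was computed. The 1 lower was Scap, at 97.0 and 103.8 CPM in CK1a_OV, against 113.9 and 103.2 CPM in OV_control. DESeq2 called 8 members higher and 0 lower, but only 207 genes higher and 400 lower of all 13958. Srebf2, Dhcr7 and Mylip did not pass with DESeq2. The median log2 fold change was 0.14 over the members and 0.00 over all genes. Abcg1 could not be tested because it had no count.

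Insig1 had the largest of the increases that passed, with 34.9 and 32.0 CPM in libraries labelled CK1a_OV, against 21.9 and 20.7 CPM in OV_control libraries, a 1.56-fold difference with no overlap (0.64 ± 0.10, adjusted p = 1.95e-06). Insig2 had 54.2 and 53.2 CPM in CK1a_OV, against 47.04 and 52.0 CPM in OV_control, and did not pass (0.10 ± 0.07, adjusted p = 0.356). Srebf2 had 215.1 and 197.5 CPM in CK1a_OV, against 180.1 and 191.8 CPM in OV_control (0.14 ± 0.04, adjusted p = 0.0215). The increases lay mainly in the squalene and sterol arm, where all 12 fitted changes were above 0 and 6 passed, though Ebp fell below 0 without CK1a_OV replicate 1 or OV_control replicate 1.

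Msmo1 had 76.8 and 82.7 CPM in libraries labelled CK1a_OV, against 55.3 and 56.4 CPM in OV_control libraries (0.50 ± 0.06, adjusted p = 5.11e-09). Lanosterol demethylase (Cyp51) had 121.4 and 129.5 CPM in CK1a_OV, against 95.2 and 88.9 CPM in OV_control (0.43 ± 0.05, adjusted p = 1.55e-09). Lss had 33.4 and 32.4 CPM in CK1a_OV, against 24.9 and 24.1 CPM in OV_control (0.41 ± 0.09, adjusted p = 0.00111). In each of these 3 genes both CK1a_OV libraries lay above both OV_control libraries. Stard4 (0.32 ± 0.06, adjusted p = 6.10e-05), Dhcr7, the reductase that yields cholesterol (0.27 ± 0.07, adjusted p = 0.00445), and Sqle (0.16 ± 0.03, adjusted p = 0.000863) made up the 6. In the mevalonate arm 0 of 8 passed by edgeR or by DESeq2, and Hmgcs1 was the 1 gene with an unadjusted p under 0.05. Their changes lay between −0.03 (Mvd) and 0.16 (Hmgcs1), apart from 0.88 ± 0.45 for Fdps, which had 0.462 to 1.61 CPM.

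Both desaturases rose by a similar amount in the CK1a_OV libraries, Scd2 by 0.22 ± 0.02 (1076 and 1075 CPM in CK1a_OV, against 911.8 and 912.5 CPM in OV_control, adjusted p = 3.34e-10) and Scd1 by 0.22 ± 0.04 (143.2 and 140.4 CPM in CK1a_OV, against 124.3 and 116.8 CPM in OV_control, adjusted p = 0.000306). The genes before them in the pathway lay near 0, with Acly at −0.07 ± 0.03, Acaca at −0.01 ± 0.05 and Fasn at −0.02 ± 0.04. Among LXR genes Mylip had 17.7 and 21.6 CPM in CK1a_OV, against 12.5 and 16.0 CPM in OV_control (0.45 ± 0.13, adjusted p = 0.0111), while Abca1 (−0.20 ± 0.10), Nr1h2 (0.09 ± 0.08) and Nr1h3 (−0.74 ± 0.63, at 0.238 to 0.988 CPM) did not pass. Fibroblast markers summed to 3858 and 3866 CPM in CK1a_OV, against 4380 and 4421 CPM in OV_control, with 6 of 8 tested lower, and their part in the results was not tested. The call of Srebf2 did not pass without CK1a_OV replicate 1 or OV_control replicate 1 (adjusted p = 0.346 and 0.288, with the change at 0.07 without the first), that of Dhcr7 without CK1a_OV replicate 1 or OV_control replicate 2 (0.0511 and 0.153), and that of Mylip without CK1a_OV replicate 2 or OV_control replicate 1 (0.196 and 0.277, with the change at 0.28 without the second). Scap passed as lower without CK1a_OV replicate 2 or OV_control replicate 2 (adjusted p = 0.0393 and 0.0221).

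In the CK1a_siRNA libraries 20 of the 24 tested sterol and fatty acid enzymes were higher. The LXR targets among the members, Abca1, Abcg1 and Mylip, were lower. Of 5 further LXR partners and targets tested, Lpcat3 (0.63 ± 0.05) and Arl4c (0.55 ± 0.07) were higher and Rxrb was lower. Of 34 members tested 23 were higher (65.7% of 35), against 28.3% of all 14832 genes, and 6 were lower (17.1%), against 26.4% of all genes, of which 54.7% passed in either direction. The median log2 fold change was 0.45 over the members and −0.01 over all genes. The 5 that did not pass were Srebf1, Scap, Ebp, Dhcr7 and Acaca, and Stard4 had no count.

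The mevalonate arm rose as a block, 8 of 8, with a median of 0.99 on the log2 scale and a summed level of 233.6 and 246.7 CPM in CK1a_siRNA libraries, against 123.2 and 131.4 CPM in knockdown_control libraries. Hmgcs1 (ENSMUSG00000093930, chromosome 13, 119690379 to 119708260, plus strand), which makes HMG-CoA, the substrate of the rate-limiting step, had 88.1 and 90.6 CPM in CK1a_siRNA, against 34.5 and 37.9 CPM in knockdown_control, a 2.52-fold difference (1.34 ± 0.07, adjusted p = 3.14e-25). Its promoter is the first of those printed above. Mvk, the mevalonate kinase, had 23.2 and 21.9 CPM in CK1a_siRNA, against 9.90 and 11.0 CPM in knockdown_control (1.14 ± 0.12, adjusted p = 4.05e-12). Idi1, the isomerase of the isoprenoid units, had 17.9 and 23.9 CPM in CK1a_siRNA, against 8.90 and 11.0 CPM in knockdown_control (1.10 ± 0.14, adjusted p = 9.00e-10), with 21.9% of its 100-base words shared with the gene model Gm13502. In these 3 genes the groups were well apart. Pmvk (0.88 ± 0.11), Ggps1 (0.60 ± 0.11), Mvd (0.58 ± 0.13) and Acat2 (0.44 ± 0.09) also rose. Fdps had the largest fitted change of the members (1.68 ± 0.34, adjusted p = 3.01e-05) at only 3.40 and 3.26 CPM in CK1a_siRNA, against 1.18 and 0.953 CPM in knockdown_control.

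**Figure D3:**
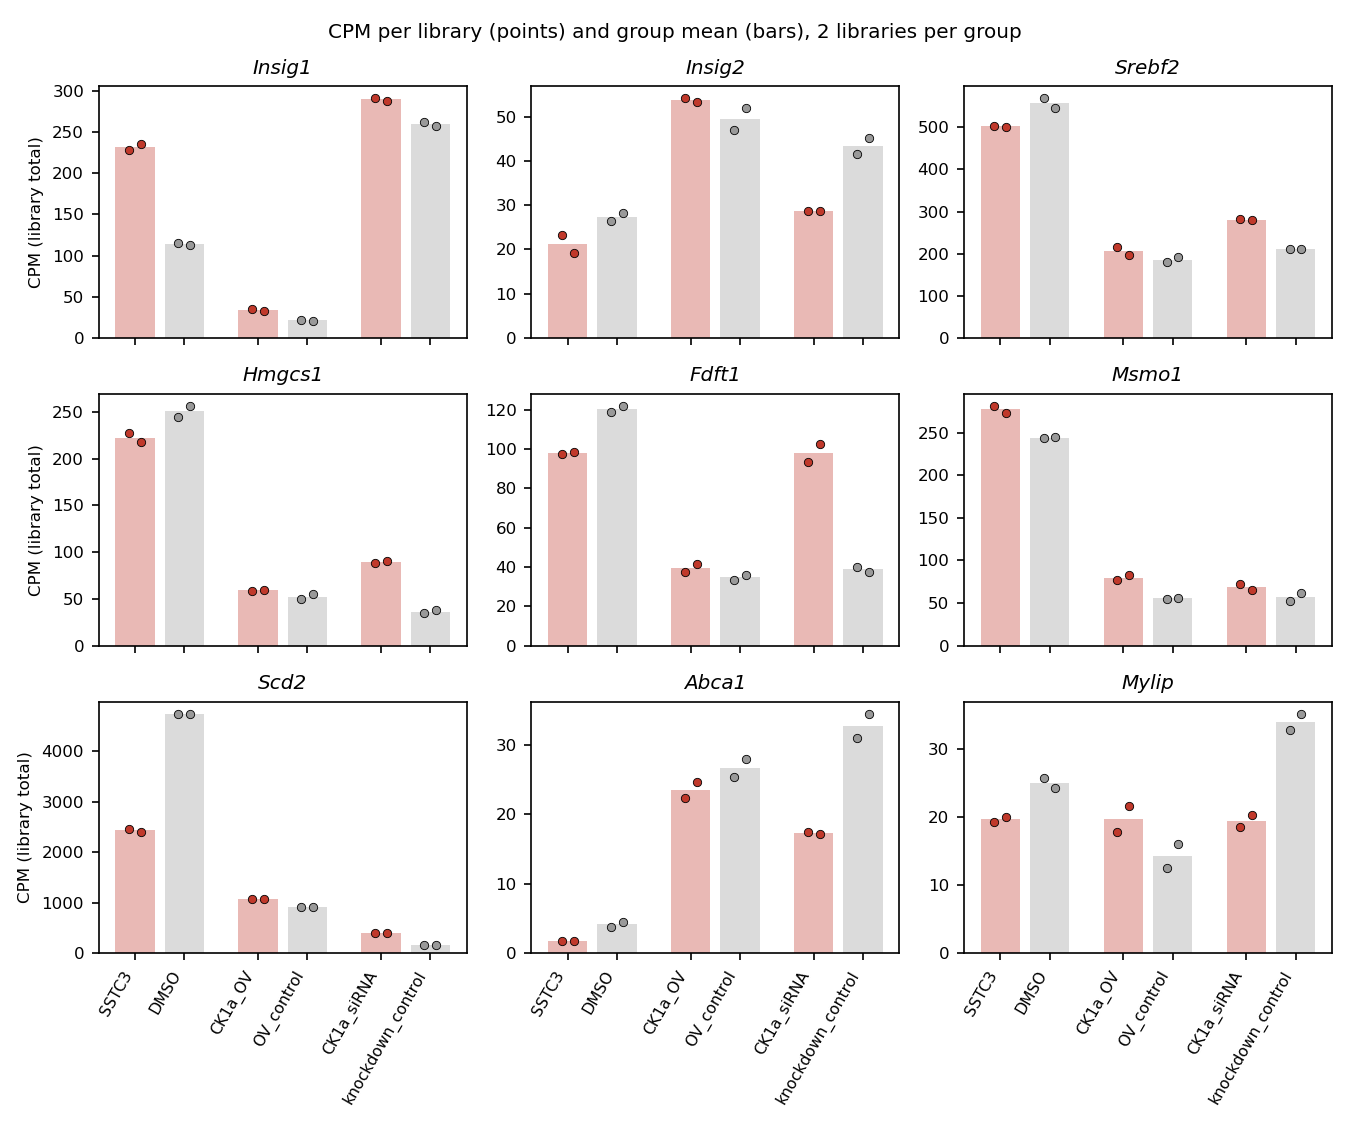
CPM of 9 members in every library (points) with the group mean (bars), SSTC3, CK1a_OV and CK1a_siRNA in red and their controls in grey, on linear axes from 0. Hmgcs1, Fdft1 and Scd2 are higher in CK1a_siRNA than in knockdown_control. With SSTC3, Insig1 is higher and Scd2 and Abca1 are lower than with DMSO. Mylip is lower in CK1a_siRNA but higher in CK1a_OV than in their controls.

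In the squalene and sterol arm 8 of 11 tested genes rose and 1 fell. Fdft1 (ENSMUSG00000021273, chromosome 14, 63145150 to 63179578, minus strand), the squalene synthase that commits the pathway to sterols, had 93.4 and 102.4 CPM in CK1a_siRNA libraries, against 40.2 and 37.4 CPM in knockdown_control libraries (1.37 ± 0.07, adjusted p = 4.36e-26), with 18.3% of its exonic bases overlapping Ctsb. Nsdhl had 16.6 and 17.8 CPM in CK1a_siRNA, against 7.78 and 8.69 CPM in knockdown_control (1.10 ± 0.14, adjusted p = 4.96e-10). Cyp51 had 416.6 and 427.4 CPM in CK1a_siRNA, against 216.1 and 226.9 CPM in knockdown_control (0.96 ± 0.04, adjusted p = 1.07e-28). In each of these both CK1a_siRNA libraries lay above both control libraries. Sc5d (0.59 ± 0.08), Sqle (0.56 ± 0.06), Hsd17b7 (0.55 ± 0.11), Lss (0.37 ± 0.06) and Msmo1 (0.30 ± 0.07) rose by less. Ebp, the sterol isomerase, and Dhcr7 did not pass, at −0.13 ± 0.07 and 0.06 ± 0.13. Scaled by library totals, Ebp passed as lower (−0.17, adjusted p = 0.0495). The reductase Tm7sf2 was lower, at 2.68 and 4.21 CPM in CK1a_siRNA, against 4.48 and 6.00 CPM in knockdown_control (−0.58 ± 0.24, adjusted p = 0.0353). Counts of Tm7sf2, Hmgcs1 and Scap are uncertain where 12.1%, 12.1% and 13.2% of their exonic bases overlap other genes, since the strand setting of the counting is not given.

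Changes of the 5 regulators lay between −0.56 and 0.45. Srebf2 had 282.3 and 278.8 CPM in CK1a_siRNA libraries, against 210.0 and 209.9 CPM in knockdown_control libraries (0.45 ± 0.05, adjusted p = 2.01e-13), while Srebf1, at 155.3 and 153.7 CPM in CK1a_siRNA, against 147.5 and 149.1 CPM in knockdown_control, did not pass (0.09 ± 0.05, adjusted p = 0.109). Insig1 had 291.6 and 288.3 CPM in CK1a_siRNA, against 261.9 and 257.0 CPM in knockdown_control (0.20 ± 0.04, adjusted p = 0.000144). Insig2 had 28.7 CPM in both CK1a_siRNA libraries, against 41.6 and 45.1 CPM in knockdown_control (−0.56 ± 0.09, adjusted p = 1.02e-07). As with SSTC3, Insig1 was higher and Insig2 lower.

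In the fatty acid arm 4 of 5 genes rose. Scd2 had 406.8 and 403.9 CPM in CK1a_siRNA libraries, against 159.4 and 171.2 CPM in knockdown_control libraries, a 2.51-fold difference (1.33 ± 0.05, adjusted p = 2.69e-35). Acly changed by 0.50 ± 0.05, Fasn by 0.39 ± 0.04 and Scd1 by 0.35 ± 0.05, with adjusted p of 7.63e-14, 1.30e-12 and 5.25e-09. Acaca, whose libraries had 36.7 and 38.2 CPM in CK1a_siRNA, against 39.5 and 39.3 CPM in knockdown_control, did not pass (−0.04 ± 0.08, adjusted p = 0.729), between Acly before it and Fasn after it in the pathway.

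Of the 5 LXR genes 4 fell, with a median over the 5 of −0.77. Abca1 had 17.5 and 17.3 CPM in CK1a_siRNA libraries, against 31.1 and 34.5 CPM in knockdown_control libraries (−0.88 ± 0.10, adjusted p = 3.29e-11). Mylip had 18.5 and 20.3 CPM in CK1a_siRNA, against 32.7 and 35.1 CPM in knockdown_control (−0.77 ± 0.10, adjusted p = 8.54e-10). Both genes were lower in each CK1a_siRNA library than in each control library. Abcg1, another sterol exporter, had 1.44 and 1.37 CPM in CK1a_siRNA, against 2.68 and 2.75 CPM in knockdown_control (−0.91 ± 0.34, adjusted p = 0.0201), and Nr1h3 had 11.5 CPM in both CK1a_siRNA libraries, against 14.6 and 15.2 CPM in knockdown_control (−0.34 ± 0.13, adjusted p = 0.0279). Nr1h2 was higher, at 91.2 and 99.0 CPM in CK1a_siRNA, against 68.0 and 73.3 CPM in knockdown_control (0.46 ± 0.06, adjusted p = 4.30e-09). Fibroblast markers summed to 4184 and 4278 CPM in CK1a_siRNA, against 3564 and 3613 CPM in knockdown_control, with 1 of 8 tested higher and 4 lower, and the macrophage list, mostly Cd68, to 322.5 and 325.4 CPM in CK1a_siRNA, against 269.2 and 276.5 CPM in knockdown_control. Their part in the results was not tested.

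Of the 29 members called in CK1a_siRNA, 25 passed under every alternative. With all libraries kept, Tm7sf2, Nr1h3 and Abcg1 did not pass with DESeq2. Tm7sf2 and Nr1h3 did not pass with no filter (adjusted p = 0.0533 and 0.0632), nor Nr1h3 in the joint fit (0.0718). Without CK1a_siRNA replicate 1 or knockdown_control replicate 2, 3 members remained lower (Insig2, Abca1 and Mylip), with Tm7sf2 at −0.28 and −0.35 (adjusted p = 0.422 and 0.335), Nr1h3 at 0.0978 and 0.0979 and Abcg1 at 0.0625 and 0.0825. Nr1h3 and Abcg1 did not pass without CK1a_siRNA replicate 2 either (0.104 and 0.0754), nor Abcg1 without knockdown_control replicate 1 (0.0622), and Msmo1 did not pass without CK1a_siRNA replicate 1 (0.0509). Tm7sf2 was at −0.94 without CK1a_siRNA replicate 2, and Msmo1 at 0.20 without knockdown_control replicate 1.

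The CK1a_siRNA and CK1a_OV effects were compared directly, in a single fit of all 12 libraries that tests the knockdown effect minus the overexpression effect. The 2 are labelled as opposite changes of CK1α, but Csnk1a1 did not differ detectably between CK1a_OV and OV_control, so opposite changes are not shown. Among the 33 members tested in both, 24 had fitted changes of the same sign (72.7%, against 51.7% of the 12339 genes tested in both). Higher in both were 8 members (24.2%, against 2.45% of all genes), namely Srebf2, Insig1, Sqle, Lss, Cyp51, Msmo1, Scd1 and Scd2. The CK1a_OV calls of Srebf2 and Mylip did not pass with DESeq2. Mylip was the only member called in opposite directions, lower in CK1a_siRNA and higher in CK1a_OV. That is 3.03% of the members, near the 2.03% of all genes, and the reverse held for 0 members, against 2.67% of all genes. The sizes differed for 24 members, 18 with the knockdown effect higher (51.4% of 35, against 18.3% of all 17105 genes) and 6 with it lower (17.1%, against 16.8%), where 35.1% of all genes differed in either direction.

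Among the largest differences were those of 3 sterol genes and Scd2. The knockdown effect exceeded the overexpression effect by 1.17 ± 0.10 for Fdft1 (adjusted p = 8.77e-18), 1.14 ± 0.09 for Hmgcs1 (1.20e-20), 1.07 ± 0.05 for Scd2 (2.49e-35) and 1.04 ± 0.14 for Mvk (1.40e-09), all on the log2 scale. It was the lower of the 2 for Mylip (−1.26 ± 0.16, adjusted p = 9.76e-11), Abca1 (−0.72 ± 0.15), Insig2 (−0.70 ± 0.12) and Insig1 (−0.48 ± 0.08). For Lss, Scd1 and Dhcr7 the difference did not pass, at −0.08 ± 0.10, 0.10 ± 0.06 and −0.25 ± 0.14. Stard4 and Abcg1 have a set with no count, so their fitted differences are not read, although both are among the 11 members that did not pass.

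**Figure D4:**
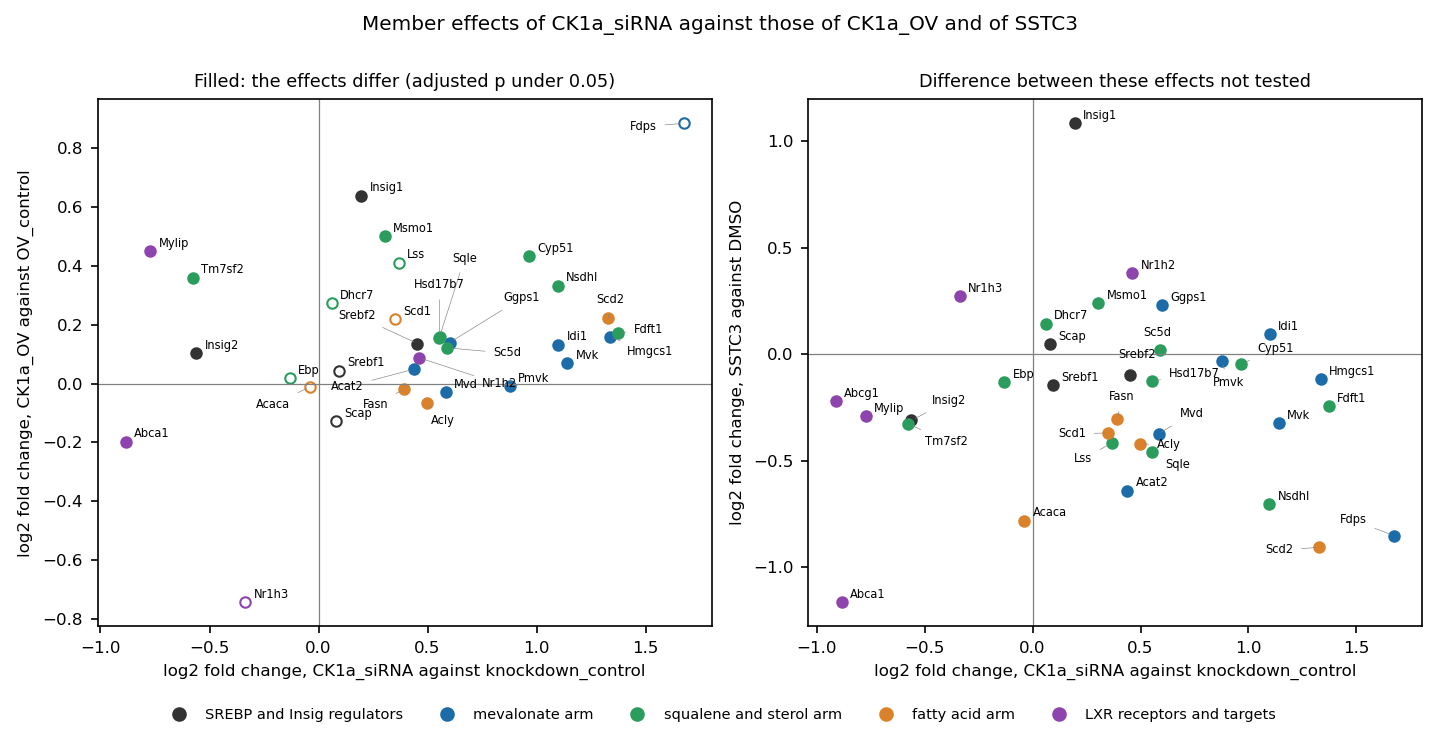
Log2 fold change of each member in CK1a_siRNA (horizontal) against that in CK1a_OV (left panel, 33 members) and in SSTC3 (right panel, 34 members), coloured by arm; filled points on the left have effects that differ at an adjusted p under 0.05. Mylip lies alone at −0.77 and 0.45 on the left, and the lower right of the second panel holds Scd2, Fdps, Nsdhl and the other members higher in CK1a_siRNA and lower with SSTC3.

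The knockdown values were also set beside the SSTC3 values. Of the 34 members tested in both, 14 were higher in CK1a_siRNA and lower with SSTC3 (Srebf2, Acat2, Hmgcs1, Mvk, Mvd, Fdps, Fdft1, Sqle, Lss, Nsdhl, Acly, Fasn, Scd1, Scd2), which is 41.2%, against 11.1% of the 12431 genes tested in both. The reverse held for 0 members, against 9.81% of all genes. Higher in both were Insig1, Ggps1, Msmo1 and Nr1h2 (11.8%, against 8.33% of all genes), and lower in both were Insig2, Tm7sf2, Abca1 and Mylip (11.8%, against 6.25%). Insig1 and Msmo1 were the only members of the 33 tested in all 3 comparisons that were higher in each. Lss, Scd1, Scd2, Sqle and Srebf2 were lower with SSTC3 and higher in the other 2. The Srebf2 call did not pass with a replicate block for SSTC3 or with DESeq2 for CK1a_OV. For these patterns over 3 comparisons no share of all genes was computed, so they are descriptions. The SSTC3 effects were not tested against the others, since the cells and treatments differ together.

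The balance between related genes can be read inside each library, free of the library total. The level of Insig1 over Insig2, both per kb, was 11.04 and 13.9 in SSTC3 libraries, against 4.91 and 4.49 in DMSO libraries. The same ratio was 0.724 and 0.675 in CK1a_OV, against 0.522 and 0.447 in OV_control, and 11.4 and 11.3 in CK1a_siRNA, against 7.07 and 6.40 in knockdown_control. In each comparison both treated libraries lay above both control libraries. In the overexpression set Insig2 was the more abundant of the pair and in the other sets Insig1.

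**Figure D5:**
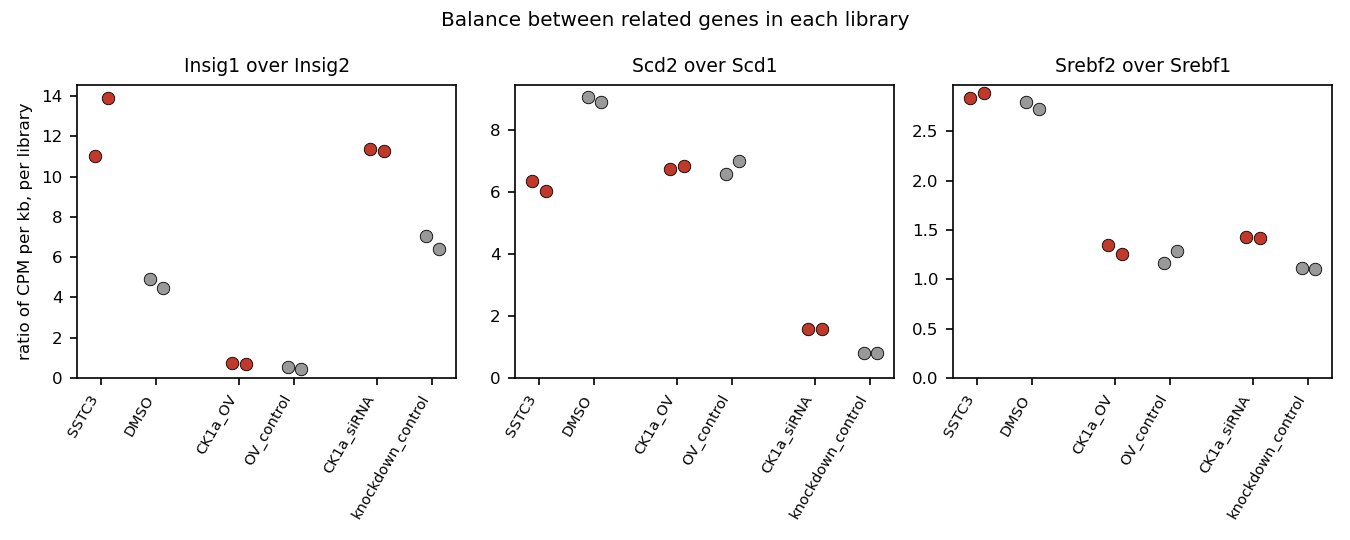
Ratio of CPM per kb of Insig1 over Insig2, Scd2 over Scd1 and Srebf2 over Srebf1 in each library (points; SSTC3, CK1a_OV and CK1a_siRNA red, their controls grey; linear axes from 0). The Insig ratio is higher in the red libraries of all 3 sets, whereas the Scd ratio is lower with SSTC3, higher in CK1a_siRNA and overlaps between CK1a_OV and OV_control.

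Scd2 over Scd1 was 6.34 and 6.04 in SSTC3 libraries, against 9.06 and 8.90 in DMSO libraries, and 1.57 and 1.59 in CK1a_siRNA, against 0.810 and 0.796 in knockdown_control. In CK1a_OV it was 6.73 and 6.85, within the 6.57 and 6.99 of OV_control. Srebf2 over Srebf1 was 1.43 and 1.42 in CK1a_siRNA, against 1.12 and 1.10 in knockdown_control, and 2.83 and 2.89 in SSTC3, against 2.79 and 2.73 in DMSO. In the overexpression set it was 1.35 and 1.25 in CK1a_OV, against 1.16 and 1.28 in OV_control, and overlapped. With 2 libraries against 2, the smallest p of a two-sided exact permutation test is 0.333, so the ratios are given as values without a test.

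Counts for the lists of surrounding genes are read against the shares of all genes called, 27.1% higher and 26.5% lower with SSTC3, 5.78% and 7.57% in CK1a_OV, and 28.3% and 26.4% in CK1a_siRNA, and with so few genes a list's share is a description. Of 11 further SREBP-responsive lipid genes, 1 was higher and 7 lower with SSTC3, 3 higher in CK1a_OV and 6 higher in CK1a_siRNA, with the others of these 2 comparisons not passing. Slc25a1, the mitochondrial citrate carrier that feeds Acly, changed by 1.18 ± 0.06 in CK1a_siRNA (adjusted p = 1.29e-25), followed by malic enzyme (Me1, 0.77 ± 0.06) and the desaturase Fads1 (0.46 ± 0.05). With SSTC3 the elongase Elovl6 changed by −0.75 ± 0.05 (adjusted p = 3.15e-40), Acsl3 by −0.72 ± 0.06 and Aacs by −0.47 ± 0.05. Of the genes named here and below, Me1, Acsl3, Erlin1, Vldlr and Rxra did not pass with DESeq2 in CK1a_OV. In CK1a_OV, Fads1 changed by 0.22 ± 0.04 (adjusted p = 6.38e-05), Me1 by 0.19 ± 0.05 (0.0036, and 0.0714 without CK1a_OV replicate 1) and Acsl3 by 0.27 ± 0.09 (0.0306, and 0.230, 0.119 and 0.0865 without CK1a_OV replicate 1 or OV_control replicate 1 or 2).

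The machinery that cleaves SREBP and degrades sterol-regulated proteins (7 genes) had 5 lower with SSTC3, 2 higher in CK1a_OV, and 3 higher and 4 lower in CK1a_siRNA. The cleaving proteases Mbtps2 (−0.57 ± 0.07, adjusted p = 3.28e-14) and Mbtps1 (−0.30 ± 0.04) fell with SSTC3. Erlin1, an endoplasmic reticulum scaffold, changed by 0.16 ± 0.04 in CK1a_OV (adjusted p = 0.00382, and 0.0515 without OV_control replicate 2). In CK1a_siRNA, Erlin1 had 88.6 and 89.0 CPM, against 148.5 and 150.9 CPM in knockdown_control (−0.72 ± 0.05, adjusted p = 3.54e-18), and the ligases Rnf145 and Rnf139 changed by −0.63 ± 0.07 and 0.81 ± 0.09.

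Of 13 genes of sterol trafficking, esterification and oxysterols, 4 were higher and 2 lower with SSTC3, 1 and 1 in CK1a_OV, and 4 and 3 of 11 tested in CK1a_siRNA, the last near the shares of all genes. Gramd1b, which moves cholesterol from the plasma membrane to the endoplasmic reticulum, had 30.9 and 32.8 CPM in CK1a_siRNA libraries, against 86.7 and 91.4 CPM in knockdown_control libraries (−1.45 ± 0.07, adjusted p = 1.41e-26). Soat1, which esterifies cholesterol, changed by −0.48 ± 0.05 there and the lysosomal lipase Lipa by 0.56 ± 0.06. With SSTC3, Vldlr changed by 0.64 ± 0.08 (adjusted p = 3.75e-13), the lysosomal sterol carrier Npc2 by 0.33 ± 0.05 and Scarb1 by 0.24 ± 0.05. In CK1a_OV, Npc2 changed by −0.19 ± 0.04 (adjusted p = 0.000111) and Vldlr by 0.21 ± 0.07 (0.0269, and 0.0858, 0.111 and 0.199 without CK1a_OV replicate 1 or 2 or OV_control replicate 2).

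LXR partners and further targets (6 genes) had 1 higher and 2 lower with SSTC3, 1 lower in CK1a_OV, and 2 higher and 1 lower of 5 tested in CK1a_siRNA. Arl4c, an LXR target in other cells, had 55.4 and 58.9 CPM in SSTC3 libraries, against 26.4 and 28.0 CPM in DMSO libraries (1.13 ± 0.08, adjusted p = 4.08e-33), and changed by 0.55 ± 0.07 in CK1a_siRNA, opposite to Abca1 and Mylip in both. The receptor partners of LXR changed by −0.78 ± 0.06 (Rxra) and −0.45 ± 0.06 (Rxrb) with SSTC3 and by −0.54 ± 0.07 (Rxrb) in CK1a_siRNA, where Lpcat3 rose by 0.63 ± 0.05. In CK1a_OV, Rxra changed by −0.23 ± 0.07 (adjusted p = 0.0194, and 0.311, 0.0956 and 0.0607 without CK1a_OV replicate 2 or OV_control replicate 1 or 2, with the change at −0.15 without the first).

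The isoprenoid branch and prenylation genes (9) had 2 higher and 2 lower with SSTC3 and 1 higher and 3 lower in CK1a_siRNA, and in CK1a_OV their changes lay between −0.11 and 0.07. Coq2, which attaches the side chain of ubiquinone, changed by 0.33 ± 0.07 with SSTC3 and −0.46 ± 0.07 in CK1a_siRNA, and Rce1, a protease of prenylated proteins, by 0.26 ± 0.07 with SSTC3 and −0.32 ± 0.08 in CK1a_siRNA. Fatty acid oxidation genes with the PPAR factors (12) had 2 higher and 7 lower of 11 tested with SSTC3, 1 and 1 of 9 in CK1a_OV, and 3 and 3 of 11 in CK1a_siRNA, where the coactivator Ppargc1a had 6.05 and 7.82 CPM, against 19.8 and 19.9 CPM in knockdown_control (−1.48 ± 0.14, adjusted p = 3.70e-14).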

How the data were processed

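RNA of 12 libraries was read as pairs of 150 bases. The submitters' processing notes name HISAT2, featureCounts and mm10. Each deposited file holds unscaled whole-number counts per gene. Versions, strand setting and gene models: not given in the sources used here. Ensembl identifiers were matched to symbols, positions and exon lengths of GENCODE M21 (mm10). The overexpression files list 55401 features, the others 54532, and 54100 are shared. The overexpression files have no mitochondrial counts, and leaving mitochondrial counts out of the totals moved no group mean of a member by more than 2.02%.

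From these counts, levels were computed as CPM of the library total, and per kb by the union exon length. A comparison used only its own 4 libraries, in edgeR 4.0.16 in R 4.3.3 (filterByExpr, TMM factors, robust quasi-likelihood F test), with Benjamini-Hochberg adjustment over all genes tested and a threshold of 0.05. The SE is the absolute log2 fold change divided by the square root of F. The difference of the knockdown and overexpression effects is a contrast in a fit of all 12 libraries. The genes named are all 35 members, Csnk1a1, and up to 3 genes per further list and comparison with the smallest adjusted p, of which most are printed. Members and lists were chosen with earlier results of these data known. Shared sequence is the share of a gene's 100-base words found in other genes.

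Libraries of a group differed by more than sampling noise (chi-square of 2.29 to 3.61 per degree of freedom), so none was counted as a copy. Alternatives were RLE factors, library totals, DESeq2 1.42.0, no filter, 1 CPM in 2 libraries, a replicate block, a joint fit of all 12 libraries and leaving out each library in turn. Where a library is left out, the lone library of its group is assumed to vary like the others.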

Additional observations from a re-analysis of the deposited data

Results flagged for a closer look

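In 24 members the CK1a_siRNA effect differed from the CK1a_OV effect by a test of the difference itself (edgeR contrast over 12 libraries, adjusted over all genes). The values below are the knockdown effect minus the overexpression effect on the log2 scale, so a positive value means that the knockdown effect was the higher one. Overexpression is named by its label here, since Csnk1a1 did not differ detectably between CK1a_OV and OV_control.

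Among the enzymes of the mevalonate arm the difference was 0.36 for Acat2, 1.14 for Hmgcs1, 1.04 for Mvk, 0.85 for Pmvk, 0.58 for Mvd, 0.93 for Idi1 and 0.43 for Ggps1, so 7 of the 8 differed, all in 1 direction. In the squalene and sterol arm it was 1.17 for Fdft1, 0.36 for Sqle, 0.50 for Cyp51, 0.73 for Nsdhl, 0.37 for Hsd17b7 and 0.44 for Sc5d, against −0.97 for Tm7sf2 and −0.23 for Msmo1, which was higher in both comparisons but by less in the knockdown. In the fatty acid arm it was 0.53 for Acly, 0.38 for Fasn and 1.07 for Scd2. Among the regulators it was 0.28 for Srebf2, −0.48 for Insig1 and −0.70 for Insig2, and among the LXR genes 0.34 for Nr1h2, −0.72 for Abca1 and −1.26 for Mylip.

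The difference did not pass when a single library was left out for Ggps1 (without CK1a_OV replicate 2, adjusted p = 0.0740), Hsd17b7 (without CK1a_siRNA replicate 2 or knockdown_control replicate 1, 0.0582 and 0.166), Nr1h2 (without OV_control replicate 1, 0.0727) and Msmo1 (without CK1a_siRNA replicate 2, knockdown_control replicate 2, CK1a_OV replicate 2 or OV_control replicate 1, 0.204, 0.397, 0.157 and 0.0727). Without knockdown_control replicate 2 the difference was −0.11 for Msmo1, and without knockdown_control replicate 1 it was 0.24 for Hsd17b7 and 0.27 for Sc5d. The libraries of the 2 comparisons come from sets whose feature lists and control levels differ, which cannot be told apart from the difference between the treatments.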

How the results depend on the processing

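No called value of a member changed sign under the alternatives run. Of the values that did not pass, 13 changed sign under at least 1 alternative (with SSTC3 Abcg1, Pmvk, Sc5d and Scap; in CK1a_OV Acaca, Ebp, Fasn, Mvd and Pmvk; in CK1a_siRNA Dhcr7; in the difference Fdps, Nr1h3 and Srebf1), and none of these passed there. Library totals turned the balance of all called genes, to 23.2% higher and 31.2% lower with SSTC3, 7.01% and 6.79% in CK1a_OV, and 26.1% and 28.5% in CK1a_siRNA. In all, 17 of 25 calls with SSTC3, 8 of 11 in CK1a_OV, 25 of 29 in CK1a_siRNA and 20 of 24 differences passed under all of them. With SSTC3 the members higher numbered 5, but 3 with library totals, with DESeq2, with no filter and in the joint fit of 12 libraries, and 3 to 4 with 1 library left out. Genes called in CK1a_OV numbered 1863, but 607 with DESeq2, 1188 in the joint fit and 1065 to 1478 with 1 library left out, where members lower numbered 0 to 1. Members lower in CK1a_siRNA numbered 6, but 3 with DESeq2 and 3 to 5 with 1 library left out. With 1 library left out the other counts were 15 to 18 members lower and 6125 to 6718 genes called with SSTC3, 9 to 11 members higher in CK1a_OV, 22 to 23 members higher in CK1a_siRNA and 22 to 25 differences. The cause of these changes was not tested, except that fewer libraries leave less information on the spread.

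Replicate numbers did not pair the libraries: deviations of same-numbered libraries correlated at −0.0156, −0.00962 and 0.00501 in the 3 comparisons. With the replicate number as a block, 23 members were called with SSTC3 (Srebf2 and Stard4 at an adjusted p of 0.0564 and 0.0679), 11 in CK1a_OV, 29 in CK1a_siRNA and 24 in the difference. The 2 libraries per group limit each test, and Fdps, Nr1h3, Abcg1 and Tm7sf2 rest on few counts.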

Other observations

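Stard4 (mm10 chromosome 18, 33199355 to 33213862) had 0 counts in all 4 libraries of the knockdown set, against 1907 to 2101 counts in the SSTC3 and DMSO libraries and 1022 to 1269 counts in the overexpression set. Its neighbours on either side, looked at after these values were seen, were at 0 in the same 4 libraries as well. Camk4 had 25 to 30 counts in the SSTC3 and DMSO libraries and 3 to 13 in the overexpression set, and Nrep had 102 to 225 counts in the SSTC3 and DMSO libraries and 36 to 56 in the overexpression set. The next gene before Camk4, Wdr36, had 1254 to 2430 counts in the knockdown set, 2060 to 2296 in the SSTC3 and DMSO libraries and 2675 to 2845 in the overexpression set. CK1a_siRNA and knockdown_control libraries share this pattern, so it does not enter a comparison between them, and the presence of the segment in these cells was not tested.

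Abcg1 (chromosome 17, 31057675 to 31117988) was likewise at 0 in all 4 libraries of the overexpression set and between 1.37 and 3.48 CPM in the other 8 libraries.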
